A study of Mus musculus with 38 samples.

Results

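Genes that encode the enzymes of cholesterol and fatty acid synthesis were followed in cells of the Tcf21 lineage, progenitor cells sorted from mouse visceral adipose tissue. The 32 genes were given as a list by symbol and all were found in both deposited expression tables, which hold the same 25746 genes. They comprise 17 enzymes of cholesterol synthesis (Hmgcs1, Mvk, Pmvk, Mvd, Idi1, Fdps, Fdft1, Sqle, Lss, Cyp51, Tm7sf2, Msmo1, Nsdhl, Hsd17b7, Ebp, Sc5d and Dhcr7), 3 sterol regulators (Insig1, Srebf2 and Stard4) and 12 enzymes of fatty acid synthesis and modification (Acaca, Acacb, Fasn, Scd1, Scd2, Elovl5, Elovl6, Acly, Acss2, Me1, Fads1 and Fads2).

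The RNA of 29 libraries of 5000 sorted cells each was measured. Tcf21 knockout (KO) cells came from mice of 3 weeks of age (3W, n = 5), from mice given a high-fat diet (HFD) for 1 week (n = 2) and from mice given it for 12 weeks (n = 2). Wild-type (WT) cells came from mice at postnatal day 12 (P12, n = 2), at 3W (n = 7), after 1 week of HFD (n = 4), after 12 weeks of HFD (n = 5) and at 6 months of age on regular diet (6M, n = 2). The diet was begun at 6 weeks of age, so length of diet and age cannot be told apart between diet groups or in comparisons with 3W. WT 12W HFD mice also differ in age from WT 6M mice, so diet and age cannot be told apart there either. All samples carry the same note on tamoxifen, given at 75 mg/kg per day to adults or 100 µg per day to neonates to activate a MerCreMer recombinase whose promoter the labels do not name. Open chromatin was mapped by ATAC-seq in KO 3W (n = 2), WT 12W HFD (n = 2), WT 1W HFD (n = 2) and WT 3W cells (n = 3).

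Cholesterol is made from acetyl-CoA through mevalonate, isoprenoids, squalene and a series of sterols. When sterol in the endoplasmic reticulum is low, the transcription factor encoded by Srebf2 is released by proteolysis and raises transcription of nearly every enzyme of the pathway, while Insig proteins hold it back. Fatty acids are built from the same acetyl-CoA by Acly, the acetyl-CoA carboxylases and Fasn, and are then elongated by Elovl enzymes and desaturated by Scd and Fads enzymes. Fads1, Fads2 and Elovl5 act on polyunsaturated fatty acids from the diet.

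Values are TPM, a relative abundance of transcripts corrected for gene length and scaled within each library, and TPM holds no read depth. KO and WT libraries stand in separate tables, whose columns summed to between 918008 and 969385. The number of genes at 1 TPM or more ran from 10894 to 12825 per library. The labels' genotype field matched the titles in 16 of 38 samples, and in all 38 when the field was read in reverse sample order, and groups were taken from the titles. Tcf21 averaged 35.2 ± 18.3 TPM in KO 3W cells and 64.9 ± 27.0 TPM in WT 3W cells (SD, n = 5 and 7). It averaged 12.3 ± 5.90 TPM in KO 1W HFD and 23.1 ± 16.6 TPM in WT 1W HFD cells (n = 2 and 4), and 3.66 ± 2.85 TPM in KO 12W HFD and 9.37 ± 2.98 TPM in WT 12W HFD cells (n = 2 and 5). The transcript was thus lower but present in the libraries labelled KO, with a limma adjusted p of 1 each time. The sorted cells carried their lineage markers at a summed 20170 to 35000 TPM per library over 12 genes, none of them at 0 in any whole group. Dcn alone held 10335 to 25139 TPM per library. From WT 3W to WT 12W HFD and WT 6M cells, mean Col1a1 went from 2644 to 665 and 290 TPM. Mean Ly6a went the other way, from 534 to 1747 and 1957 TPM. In WT 6M cells Tcf21 averaged 3.89 ± 2.33 TPM (SD, n = 2). Macrophage markers (15 genes) summed to 3347 and 7077 TPM in the KO 12W HFD libraries, 4218 to 11810 TPM in WT 12W HFD and 3280 and 7774 TPM in WT 6M libraries, but to at most 254 TPM in any WT 3W library. In such bulk samples, fewer cells of a type and less RNA per cell cannot be told apart.

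All 32 genes passed the filter of 1 TPM in at least 2 libraries, Acacb through only 6 libraries. Averaged over the 8 groups with equal weight, the highest levels were 84.5 TPM for Fdps, which makes farnesyl diphosphate, 81.4 TPM for Acly, which makes cytosolic acetyl-CoA from citrate, 77.3 TPM for Ebp, a sterol isomerase, and 69.7 TPM for Elovl5, an elongase of polyunsaturated fatty acids. Hmgcs1, which makes the HMG-CoA that feeds mevalonate synthesis, followed at 57.7 TPM. The committed enzymes of fatty acid synthesis were far lower, at 10.6 TPM for Fasn, 2.96 TPM for Acaca and 0.674 TPM for Acacb, which was listed at 0 in 3 libraries. Lss, which closes the sterol ring, averaged 4.82 TPM. Of the regulators, Insig1 averaged 23.2 TPM, Srebf2 15.4 TPM and Stard4, a sterol carrier, 10.3 TPM. In WT 3W cells Elovl5 led with 85.5 ± 23.2 TPM, Ebp had 76.1 ± 22.4 TPM (SD, n = 7) and the order of the 2 was within their spread.

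Most of the genes whose promoters could be examined had a peak there in every library. RefSeq promoter windows on build GRCm38.p6, which is mm10, run from 250 bases before to 50 bases after the gene start and were at hand for 25 of the 32 genes, not for Fdps, Fdft1, Sqle, Stard4, Scd1, Scd2 and Fads1. In 8 of the 9 ATAC libraries 23 of 25 genes (92.0%) had a peak sharing at least 1 base with the window, against 60.2% to 64.5% of 17492 genes. In WT 1W HFD replicate 1 the count was 22 (88.0%, against 64.7%), because Fasn had no peak there. The 17492 genes were not limited to expressed genes, while all 25 passed the expression filter, so the shares are not matched for expression. Acaca and Acacb had no peak in any library, and their windows lie wholly inside the gene spans of the expression table, as do windows of Dhcr7, Me1, Pmvk and Tm7sf2. None of the 25 genes gained or lost a promoter peak between KO 3W and WT 3W libraries. How many of the 17492 genes did so was not counted, so this shows nothing particular to the list. By the authors' fold enrichment, the Idi1 peak stood above 98.4% to 99.9% of the peaks of its own list and the Hmgcs1 peak above 97.9% to 99.7%, while the Me1 peak (malic enzyme, a source of NADPH) stood above only 64.3% to 86.9%. These ranks are among all peaks of a library, at promoters or elsewhere, and ranks among promoter peaks alone were not computed.

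The last 150 bases before the RefSeq start are shown for 6 genes. Hmgcs1 was chosen because its promoter holds the sterol element. The others were chosen because their transcripts changed between WT groups compared below, which differ in age as well as in diet. Diet and age cannot be told apart there. The bases shown are RefSeq sequences on GRCm38.p6, read 5′ to 3′ on the gene's own strand. The gene spans of the expression table can begin further out: they hold all 150 bases shown for Msmo1 and Fads2, 105 of Idi1, 49 of Cyp51, 1 of Elovl5 and none of Hmgcs1. Capitals mark the letters TCACNCCAC, the classical sterol regulatory element, and CCAAT, the core of the NF-Y site, on either strand (ATTGG is CCAAT on the other strand).

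Hmgcs1, chr13:119690201-119690350, plus strand: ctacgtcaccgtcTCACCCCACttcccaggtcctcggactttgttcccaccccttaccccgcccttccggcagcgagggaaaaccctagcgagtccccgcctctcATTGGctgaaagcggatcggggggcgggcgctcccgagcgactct

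Idi1, chr13:8885456-8885605, plus strand: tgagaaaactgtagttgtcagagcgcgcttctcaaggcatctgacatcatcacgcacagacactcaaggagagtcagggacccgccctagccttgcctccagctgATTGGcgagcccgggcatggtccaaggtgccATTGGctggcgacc

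Cyp51, chr5:4104698-4104847, minus strand: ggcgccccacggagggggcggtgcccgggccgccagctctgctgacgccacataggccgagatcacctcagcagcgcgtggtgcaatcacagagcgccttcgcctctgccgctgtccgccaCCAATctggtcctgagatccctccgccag

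Msmo1, chr8:64733579-64733728, minus strand: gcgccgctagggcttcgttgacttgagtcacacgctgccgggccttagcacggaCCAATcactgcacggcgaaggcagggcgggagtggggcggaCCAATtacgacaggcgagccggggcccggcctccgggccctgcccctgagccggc

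Elovl5, chr9:77917215-77917364, plus strand: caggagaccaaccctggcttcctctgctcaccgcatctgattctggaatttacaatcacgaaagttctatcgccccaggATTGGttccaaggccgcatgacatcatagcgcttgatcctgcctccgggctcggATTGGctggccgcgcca

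Fads2, chr19:10101504-10101653, minus strand: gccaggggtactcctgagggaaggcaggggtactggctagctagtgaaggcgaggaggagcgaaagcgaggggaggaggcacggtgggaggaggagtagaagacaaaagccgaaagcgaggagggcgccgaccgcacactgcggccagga

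The 3 motifs searched on both strands of the 300-base windows were TCACNCCAC, CCAAT and GGGCGG, the core of the Sp1 site. CCAAT was found in 22 of 25 genes (88.0%), against 42.3% of all 17492 genes, and at least 2 copies were found in 11 (44.0%), against 14.6%. GGGCGG was found in 19 of 25 (76.0%), against 49.2%. These shares of all genes were likewise not limited to expressed ones. TCACNCCAC was found in Hmgcs1 alone (4.0%, against 1.41% of all genes), and no match says only that these letters are absent from the window. Of the printed promoters, Fads2 has neither CCAAT nor TCACNCCAC. Among all matches in the 25 genes' windows, 1 overlapped another.

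The libraries labelled KO were first set against WT at matched times, and no gene of the list passed this test at any time. The test was limma on log2(TPM + 1) over all 29 libraries, with Benjamini-Hochberg adjusted p-values for 15659 tested genes, called when under 0.05. Shares of all genes, here and below, refer to this adjusted threshold. Counts at an unadjusted p under 0.05 have no such share beside them and show no excess or lack by themselves. At 3W 0 of 32 genes passed, against 0% of all genes, and 0 had an unadjusted p under 0.05. After 1 week of HFD 0 of 32 passed, against 0.0255% of all genes, and after 12 weeks 0 of 32, against 0.00639%, with 0 at an unadjusted p under 0.05 each time. The median log2 change (KO minus WT) over the 32 genes was 0.07 at 3W, -0.16 after 1 week and -0.07 after 12 weeks of HFD, beside medians of 0.01, 0.00 and -0.01 over all genes.

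The largest test statistics at 3W belonged to Dhcr7, the last enzyme of cholesterol synthesis, Acss2, which makes acetyl-CoA from acetate, and Acly. Dhcr7 had 20.5, 8.95, 22.5, 14.3 and 9.15 TPM in KO 3W libraries, against a lowest, median and highest of 4.09, 9.05 and 16.1 TPM in WT 3W libraries. Both highest values were KO, yet the groups overlapped (log2 change 0.58, 95% interval -0.09 to 1.24, limma adjusted p = 1). Acss2 differed by 0.47 (95% interval -0.16 to 1.10) and Acly by 0.35 (-0.25 to 0.95), both with a limma adjusted p of 1.

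After 1 week of HFD the largest statistic was that of Me1. It had 4.65 and 6.99 TPM in KO 1W HFD libraries, against 17.3, 13.9, 10.9 and 10.1 TPM in WT 1W HFD libraries. These values did not overlap, but the log2 change of -1.04 ± 0.52 (SE; 95% interval -2.10 to 0.03) had a limma adjusted p of 1. Groups of 2 libraries can part in this way without a difference. How many of all genes did so was not counted, here or in the comparisons below. Insig1 (-0.58 ± 0.44) and Sc5d, a sterol desaturase (0.75 ± 0.56), came next, both with an adjusted p of 1.

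After 12 weeks of HFD the largest statistic was that of Pmvk, a kinase of the mevalonate steps. It had 25.1 and 17.5 TPM in KO 12W HFD libraries, against 36.5, 38.4, 29.03, 29.3 and 28.1 TPM in WT 12W HFD libraries. These values did not overlap either (log2 change -0.59 ± 0.31, 95% interval -1.22 to 0.05, limma adjusted p = 1). Lss (1.07 ± 0.75) and Elovl6, an elongase of saturated fatty acids (-0.94 ± 0.67), followed, with adjusted p of 1.

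The intervals were wide. At 3W the 95% intervals of the 32 genes reached down to -1.42 for Elovl6 and up to 1.64 for Lss. With 2 KO libraries they reached -2.10 and 2.46 after 1 week, and -2.34 and 2.61 after 12 weeks of HFD. The change of the KO effect between times was tested as an interaction. It passed for 0 of 32 genes between 1 week of HFD and 3W (0.00639% of all genes passed), for 0 between 12 weeks of HFD and 3W (0%) and for 0 between 12 and 1 week of HFD (0.0128%). In each of these, 0 of the 32 had an unadjusted p under 0.05 by limma. Macrophage markers, whose part was not tested, were higher in KO for 15 of 15 genes at 3W, 14 of 15 after 1 week and 1 of 15 after 12 weeks of HFD, with none passing the test. Cell cycle genes were higher in KO for 14, 16 and 4 of 16 genes at 3W, after 1 week and after 12 weeks of HFD, again with none passing. Of 9 mesothelial markers 8 were higher in KO after 1 week of HFD, 1 of them past the threshold. The 2 KO 1W HFD libraries differed here, with 24.82 and 1.46 TPM of Msln and 31.26 and 3.18 TPM of Upk3b, but 67.88 and 78.03 TPM of Wt1. In the same order the endothelial marker Pecam1 read 53.68 and 10.94 TPM.

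**Figure D1:**
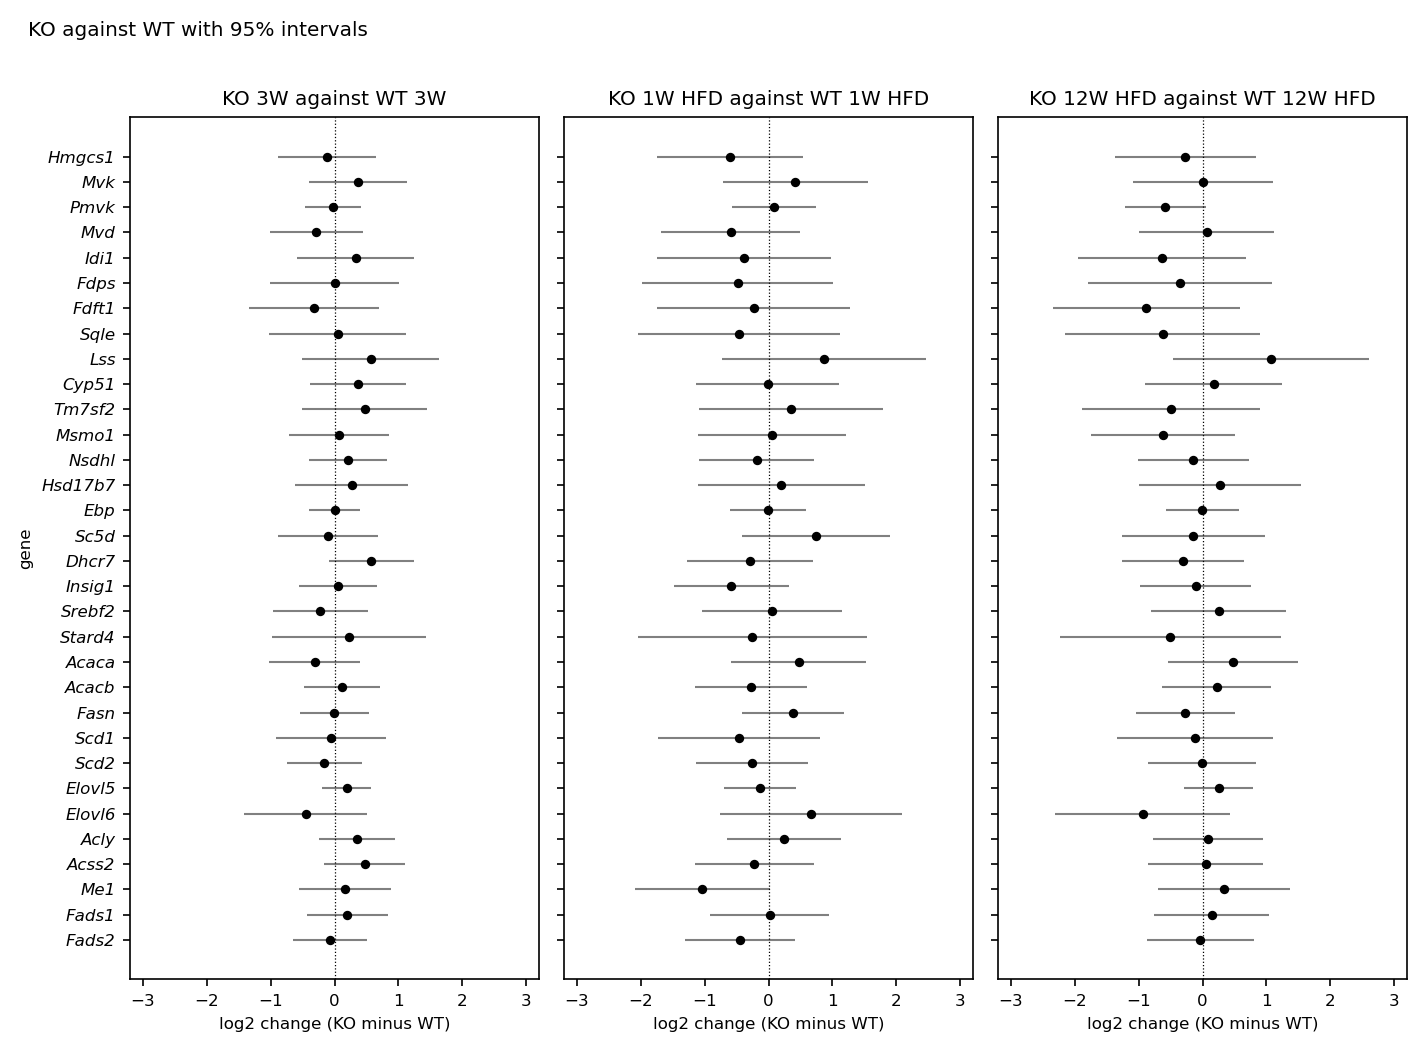
Log2 change (KO minus WT, on the log2(TPM + 1) scale) of each of the 32 genes at 3W, after 1 week and after 12 weeks of HFD. Points are limma estimates and bars are 95% intervals. All 32 intervals at 3W include 0, and those of the diet groups, with 2 KO libraries each, are wider.

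Some cholesterol and fatty acid genes passed between WT 12W HFD and WT 3W cells, where 1244 of all 15659 genes rose and 976 fell. In WT 12W HFD against WT 3W cells, 5 of 32 genes rose, against 7.94% of all genes, and 3 of 32 fell, against 6.23%. Whether the shares of the list differ from those of all genes was not tested. The 5 were Msmo1, Fdft1, Idi1 and Cyp51 of cholesterol synthesis and Acly, and the 3 were Elovl5, Fads2 and Scd2, all of fatty acid modification. Of the 17 cholesterol enzymes 4 rose, none fell and 13 did not pass, and 15 of the 17 changes were positive, with a median log2 change of 0.53 beside -0.04 over all genes. Of the 12 fatty acid enzymes 1 rose, 3 fell and 8 did not pass, with a median of 0.01.

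Msmo1 (chromosome 8, 64718139 to 64733792), a sterol methyl oxidase, had 62.7, 68.7, 61.5, 68.9 and 68.5 TPM in WT 12W HFD libraries, against a lowest, median and highest of 10.97, 20.9 and 92.0 TPM in WT 3W libraries. All 5 libraries of the diet group stood above 6 of the 7 WT 3W libraries, and replicate 7 of WT 3W stood above them all. The log2 change was 1.47 ± 0.38 (SE; limma adjusted p = 0.00787). This call was kept in 22 of 22 alternatives.

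Fdft1 (chromosome 14, 63145150 to 63179578), squalene synthase, had 29.4, 27.7, 32.2, 20.1 and 36.0 TPM in WT 12W HFD libraries, against a lowest, median and highest of 1.79, 8.54 and 40.4 TPM in WT 3W libraries. The log2 change was 1.66 ± 0.50 (limma adjusted p = 0.0229). Idi1 (chromosome 13, 8885501 to 8892451), the isopentenyl diphosphate isomerase, had 26.6, 30.2, 27.3, 28.97 and 34.3 TPM in WT 12W HFD libraries, against 5.15, 8.17 and 46.5 TPM (lowest, median, highest) in WT 3W libraries. For both genes the pattern was that of Msmo1, with 6 of 7 WT 3W libraries below every diet library and replicate 7 above.

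Idi1 changed by 1.41 ± 0.45 on the log2 scale (limma adjusted p = 0.0323). Cyp51 (chromosome 5, 4081145 to 4104746), the lanosterol demethylase, had 23.3, 16.3, 21.4, 31.8 and 25.0 TPM in WT 12W HFD libraries, against 4.19, 10.2 and 32.9 TPM in WT 3W libraries. Its change of 1.07 ± 0.37 had a limma adjusted p of 0.0496, just inside the threshold. Acly (chromosome 11, 100476353 to 100528000) had 86.5, 71.1, 74.5, 107 and 106 TPM in WT 12W HFD libraries, against 23.9, 50.4 and 83.4 TPM in WT 3W libraries, a log2 change of 0.90 ± 0.29 (adjusted p = 0.0370). For Acly too, 6 of the 7 WT 3W libraries lay below all diet libraries.

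The number of listed genes that rose moved with single libraries, while the 3 lower calls numbered 3 without any one of them. Counts over all genes in these fits are not given here, so a shift of the whole fit is not told apart. The 5 higher calls became 1 without WT 3W replicate 2, without WT 3W replicate 5 or without WT 12W HFD replicate 5. They became 2 without WT 3W replicate 3 or without WT 12W HFD replicate 1, 3 or 4, and 3 without WT 3W replicate 4. The calls of Idi1 and Cyp51 were each lost in 11 of 22 alternatives, that of Acly in 7 and that of Fdft1 in 5, always with the same direction.

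Without WT 3W replicate 7 the higher calls were instead 7, and Fdps and Insig1 joined with log2 changes of 1.48 and 0.89 (limma adjusted p = 0.0227 and 0.0398). Fdps had 86.6, 128, 122, 79.8 and 118 TPM in WT 12W HFD libraries, against a lowest, median and highest of 22.1, 38.4 and 211 TPM in WT 3W libraries. The 211 TPM was again replicate 7. With all libraries Fdps changed by 1.12 ± 0.49 (adjusted p = 0.138).

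Elovl5 (chromosome 9, 77917364 to 77984519) had 37.1, 32.4, 37.6, 51.4 and 32.5 TPM in WT 12W HFD libraries, against a lowest, median and highest of 63.1, 81.9 and 116 TPM in WT 3W libraries. The groups did not overlap. The log2 change was -1.12 ± 0.19 (limma adjusted p = 6.47e-05), kept in 22 of 22 alternatives.

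Fads2 (chromosome 19, 10062765 to 10101746), the delta-6 desaturase, had 18.3, 11.2, 13.9, 29.2 and 12.2 TPM in WT 12W HFD libraries, against 24.0, 58.2 and 83.8 TPM (lowest, median, highest) in WT 3W libraries. Only WT 3W replicate 2 fell within the range of the diet group. The log2 change was -1.61 ± 0.28 (limma adjusted p = 0.000135), also kept in 22 of 22 alternatives. Its neighbour Fads1, the delta-5 desaturase on the same chromosome, changed by -0.42 (95% interval -1.05 to 0.21, adjusted p = 0.438).

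Scd2 (chromosome 19, 44293674 to 44306864), a stearoyl-CoA desaturase, had 14.6, 5.24, 8.85, 6.38 and 12.4 TPM in WT 12W HFD libraries, against 12.7, 25.8 and 31.6 TPM (lowest, median, highest) in WT 3W libraries. The log2 change was -1.22 ± 0.29 (limma adjusted p = 0.00350), and only WT 3W replicate 5 overlapped the diet group. Its paralog Scd1 on the same chromosome changed by 0.54 (95% interval -0.32 to 1.40, adjusted p = 0.470). The paralogs Scd1 and Scd2 are similar in sequence and their reads could be split between them, so their values are less certain.

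**Figure D2:**
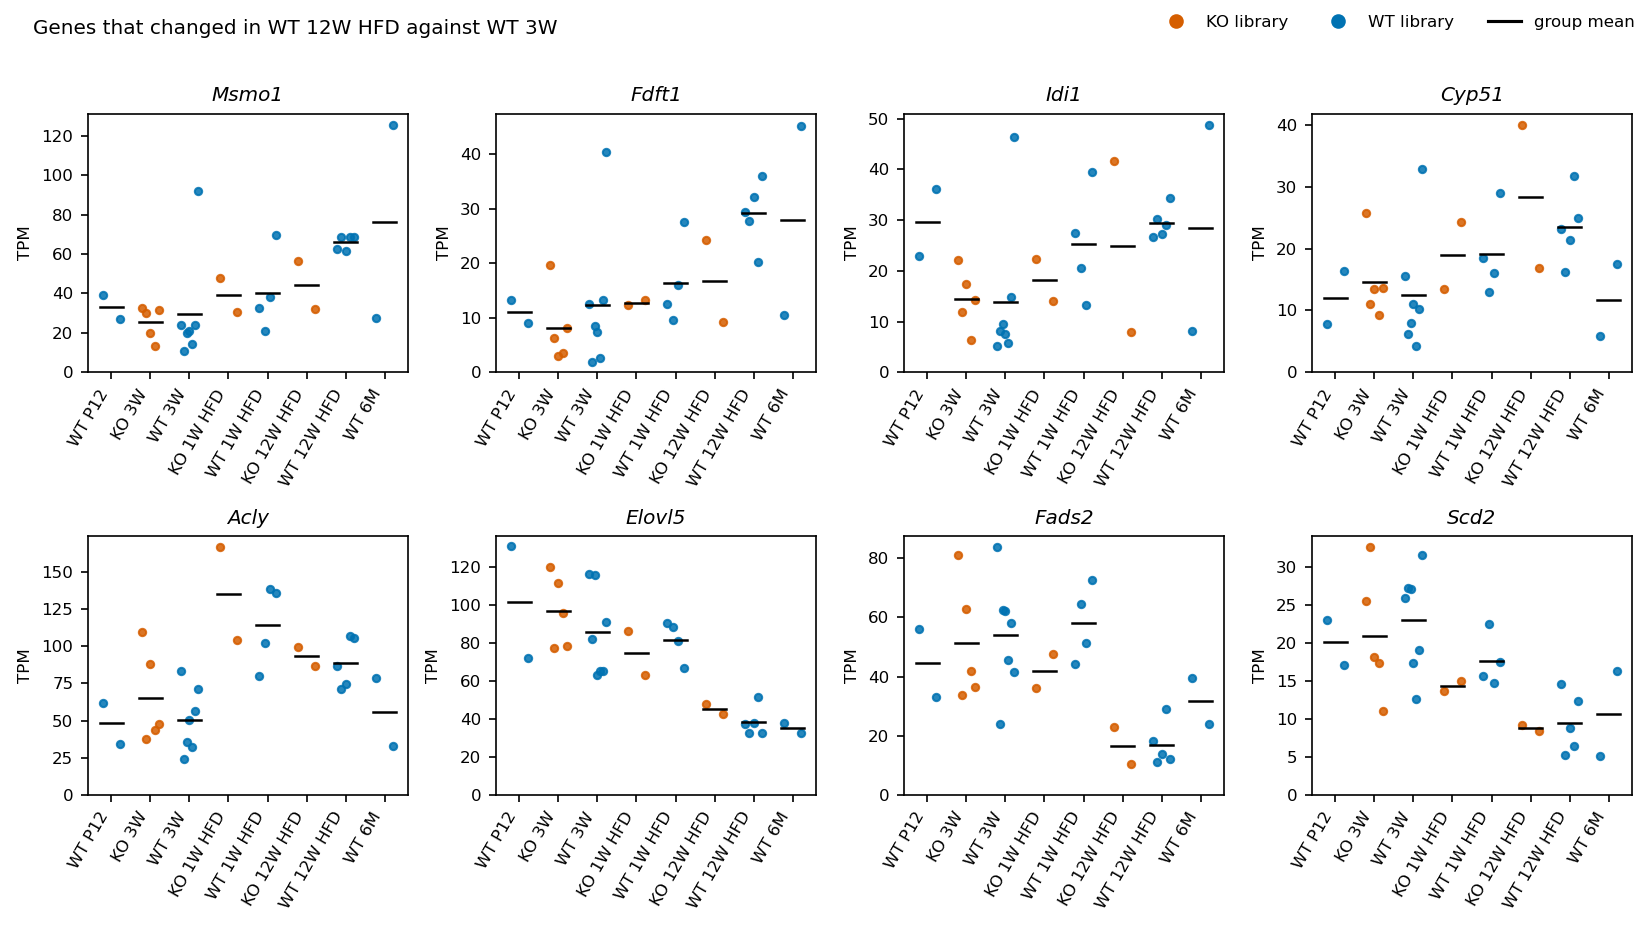
TPM of the 8 genes that changed in WT 12W HFD against WT 3W cells, by group. Each point is a library (orange KO, blue WT) and black lines are group means. The single high WT 3W point in the panels of Msmo1, Fdft1, Idi1 and Cyp51 is replicate 7, and the Elovl5 values of all 12W HFD and 6M libraries lie below every 3W value.

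Markers of other cells moved in the same comparison. All 15 macrophage markers rose in WT 12W HFD against WT 3W cells, with a median log2 change of 5.32, as did 8 of 9 markers of lipid-associated macrophages and 7 of 8 lymphocyte markers. The macrophage marker Adgre1 averaged 87.8 ± 44.5 TPM in WT 12W HFD cells and 0.240 ± 0.284 TPM in WT 3W cells (SD, n = 5 and 7). Of 15 adipocyte markers 1 rose and 6 fell, and of the 12 lineage markers 2 rose and 4 fell. The part of these cell types in the changes of the listed genes was not tested.

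The contrast of WT 12W with WT 1W HFD, which share the diet but differ in its length and in age, gave lower values of a desaturase and an elongase. Of the 32 genes 2 fell, Fads2 and Elovl5, against 2.39% of all genes, and none rose. Fads2 had the 12W values given above, against 44.3, 64.5, 51.2 and 72.8 TPM in WT 1W HFD libraries, with no overlap (log2 change -1.78 ± 0.33, limma adjusted p = 0.000537). Elovl5 had 90.4, 88.2, 80.6 and 66.7 TPM in WT 1W HFD libraries, also with no overlap (-1.08 ± 0.21, adjusted p = 0.00127). Scd2 changed by -0.89 ± 0.33 (adjusted p = 0.120). The median log2 change of the cholesterol enzymes was 0.11, with 10 of 17 positive. The median over all genes is not given beside it, so a shift of the whole fit is not told apart. Of all genes 554 rose and 374 fell, and with median-ratio scaling 645 rose and 265 fell. Macrophage markers rose in 13 of 15 cases in this comparison, and their part was not tested.

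KO cells after 12 weeks of HFD were set against KO 3W cells, where 2 of 32 genes fell, Elovl5 and Fads2, against 1.96% of all genes, and none rose. Elovl5 had 47.5 and 42.5 TPM in KO 12W HFD libraries, against 120, 77.1, 112, 95.6 and 78.4 TPM in KO 3W libraries (log2 change -1.06 ± 0.27, limma adjusted p = 0.0138). Fads2 had 22.8 and 10.5 TPM in KO 12W HFD libraries, against 81.3, 33.9, 62.9, 42.0 and 36.4 TPM in KO 3W libraries (-1.58 ± 0.41, adjusted p = 0.0165). Neither gene overlapped between the groups. With 2 diet libraries the calls rested on each of them: without KO 12W HFD replicate 1 only Fads2 passed, and without replicate 2 neither did, with Elovl5 at -0.98 (adjusted p = 0.226) and Fads2 at -1.05 (adjusted p = 0.510). Macrophage markers rose in 13 of 15 cases here, and their part was not tested.

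None of the 5 genes that rose in WT cells passed in KO 12W HFD against KO 3W cells. Their log2 changes were 0.78 for Msmo1, 1.09 for Fdft1, 0.45 for Idi1, 0.87 for Cyp51 and 0.63 for Acly. The 2 KO 12W HFD libraries differed from each other, with 41.6 and 8.0 TPM for Idi1 and 24.2 and 9.28 TPM for Fdft1, and the interaction tests of these genes had a limma adjusted p of 1. KO 12W HFD against KO 1W HFD gave 0 of 32 genes, against 0.760% of all genes, with 3 at an unadjusted p under 0.05 by limma. All genes split into 77 higher and 42 lower, and with median-ratio scaling into 98 higher and 30 lower. The 3 were Fads2 (-1.36 ± 0.49), Sc5d (-1.61 ± 0.65) and Elovl5 (-0.70 ± 0.32), with adjusted p of 0.290, 0.432 and 0.570.

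In WT 1W HFD against WT 3W cells 1 of 32 genes rose, Acly, a share below the 4.78% of all genes, and none fell, against 3.25%. Acly had 80.2, 102, 138 and 136 TPM in WT 1W HFD libraries, against 23.9, 50.4 and 83.4 TPM (lowest, median, highest) in WT 3W libraries, so that only WT 3W replicate 1 overlapped the diet group. The log2 change was 1.24 ± 0.31 (limma adjusted p = 0.0131). It missed the threshold without WT 1W HFD replicate 3 or 4 (adjusted p = 0.0621 and 0.0579).

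The cholesterol enzymes of WT 1W HFD cells gave positive changes in 16 of 17 cases, with a median of 0.65 beside 0.02 over all genes, but 0 of 17 passed. The nearest were Hsd17b7, a sterol ketone reductase (1.36 ± 0.46, limma adjusted p = 0.0683), and Dhcr7 (0.93 ± 0.35, adjusted p = 0.102), and the third largest statistic outside Acly was that of Stard4 (1.47 ± 0.63, adjusted p = 0.163). Without WT 3W replicate 7 Hsd17b7 and Idi1 joined Acly, at 1.57 (adjusted p = 0.0350) and 1.44 (0.0350). Elovl5 and Fads2 changed by -0.03 (95% interval -0.44 to 0.38) and 0.17 (-0.46 to 0.79). Macrophage markers rose in 12 of 15 cases and endothelial markers in 6 of 10 in this comparison, and their part was not tested.

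KO 1W HFD cells had 167 and 104 TPM of Acly, against 109, 37.6, 88.0, 43.5 and 47.6 TPM in KO 3W libraries. The log2 change of 1.13 ± 0.42 had a limma adjusted p of 0.240. In this comparison 0 of 32 genes passed, against 0.862% of all genes, and 3 had an unadjusted p under 0.05. The other 2 were Sc5d (1.36 ± 0.54, adjusted p = 0.297) and Hsd17b7 (1.30 ± 0.62, adjusted p = 0.420). Again 16 of 17 cholesterol enzymes had positive changes, with a median of 0.32 beside 0.03 over all genes. Macrophage markers rose in 4 of 15 cases, and their part was not tested.

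**Figure D3:**
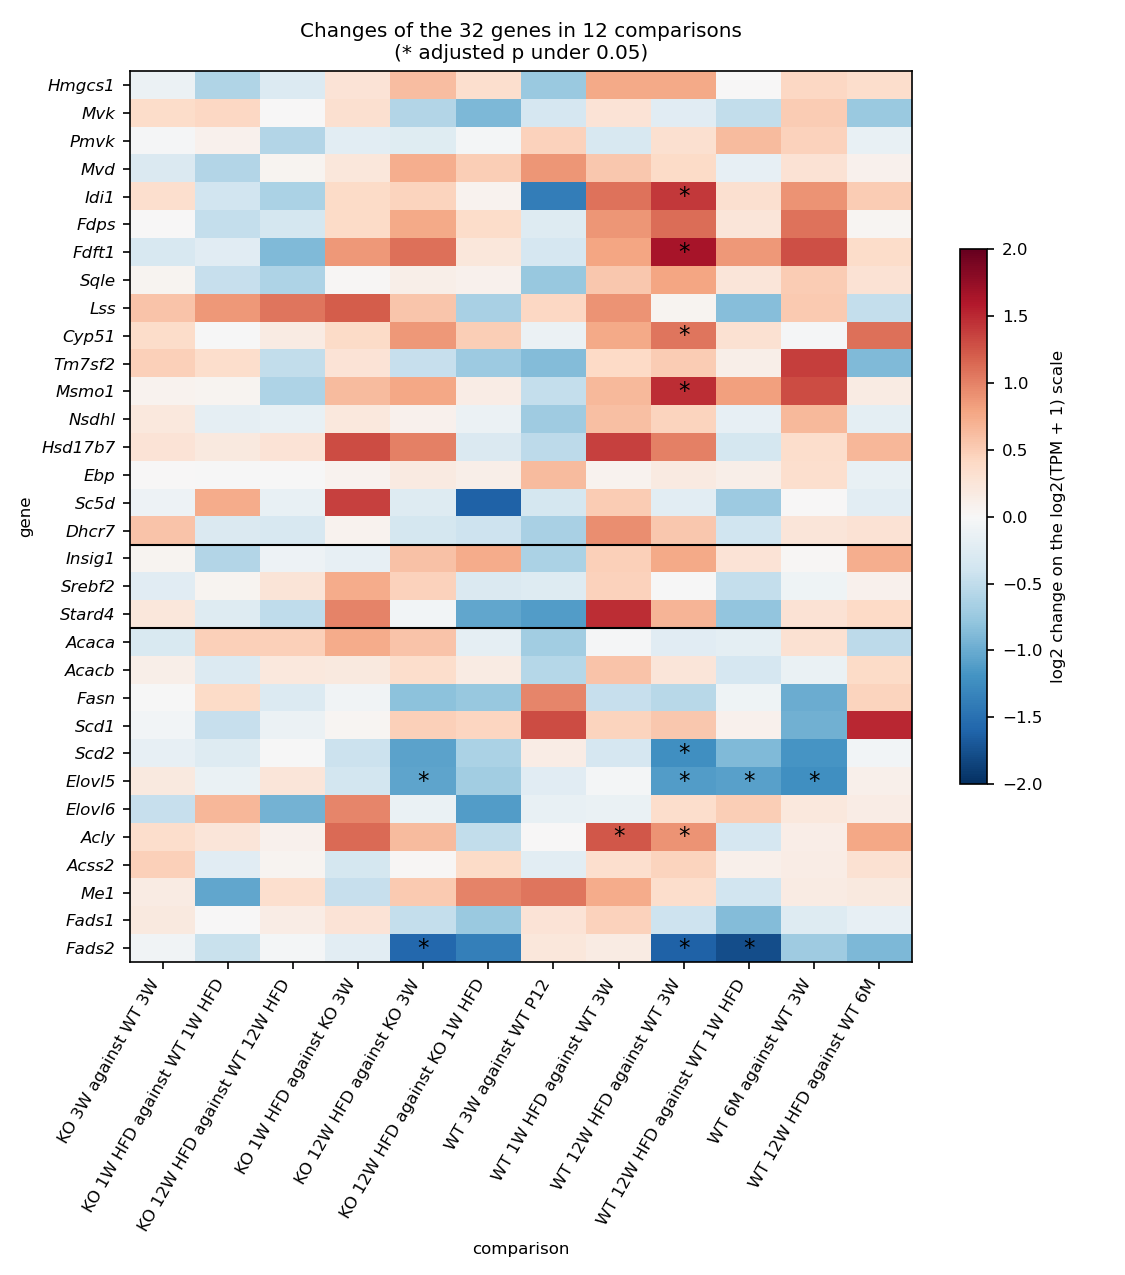
Log2 change of each of the 32 genes (rows, ordered as cholesterol enzymes, sterol regulators and fatty acid enzymes, parted by lines) in 12 comparisons (columns), on the log2(TPM + 1) scale from blue (-2) to red (2). Stars mark limma adjusted p under 0.05. The 3 KO against WT columns hold no star, and Elovl5 and Fads2 carry stars in the columns of 12W HFD against 3W in both genotypes.

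Age on regular diet was compared in WT 6M and WT 3W cells. Of the 32 genes 1 fell, against 6.85% of all genes, and none rose. Elovl5 had 37.9 and 32.2 TPM in WT 6M libraries, below all 7 WT 3W libraries (63.1, 81.9 and 116 TPM as lowest, median and highest), a log2 change of -1.22 ± 0.26 (limma adjusted p = 0.00223). Without WT 6M replicate 2 it missed the threshold (-1.11, adjusted p = 0.0582). Scd2 (-1.17 ± 0.40, adjusted p = 0.0541) and Fasn, the fatty acid synthase (-0.996 ± 0.361, adjusted p = 0.0736), came next. All genes together had a median change of -0.24 in this comparison, which median-ratio scaling brought to -0.03. Of all genes 626 rose and 1073 fell, and with median-ratio scaling 1001 rose and 563 fell.

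The number called moved between 1 and 2 with a single library. Fasn joined without WT 3W replicate 4 (-1.11, limma adjusted p = 0.0468), Scd2 without WT 3W replicate 5 (-1.30, adjusted p = 0.0304) and Msmo1, as higher, without WT 3W replicate 7 (1.64, adjusted p = 0.0148). Msmo1 also joined without WT 6M replicate 1 (2.39, adjusted p = 0.0266), while Scd2 took the place of Elovl5 without WT 6M replicate 2 (-1.93, adjusted p = 0.0144). Macrophage markers rose in 14 of 15 cases, lymphocyte markers in 5 of 8 and lineage markers in 2 of 12, while 3 lineage markers fell, in WT 6M against WT 3W cells, and their part was not tested.

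WT 12W HFD cells were also set against WT 6M cells, which differ in age as well as in diet, so age and diet cannot be told apart. Here 0 of 32 genes passed, against 0.881% of all genes, and 3 had an unadjusted p under 0.05 by limma. Scd1 had 36.2, 17.6, 31.7, 40.4 and 46.2 TPM in WT 12W HFD libraries, against 10.8 and 11.1 TPM in WT 6M libraries. The groups did not overlap, but the log2 change of 1.501 ± 0.598 had an adjusted p of 0.241. Fads2 (-0.90 ± 0.41, adjusted p = 0.314) and Cyp51 (1.10 ± 0.53, adjusted p = 0.348) were the other 2. Elovl5 differed by 0.10 (95% interval -0.44 to 0.65). All genes together had a median change of 0.22 here, which median-ratio scaling brought to 0.05, with 110 genes higher and 28 lower before it and 60 higher and 45 lower after it. Of 9 markers of lipid-associated macrophages 5 rose, and their part was not tested.

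From P12 to 3W no gene of the list passed. In WT 3W against WT P12 cells the count was 0 of 32, against 1.63% of all genes, and 5 had an unadjusted p under 0.05 by limma. Fasn averaged 14.8 ± 4.38 TPM in WT 3W and 6.76 ± 1.07 TPM in WT P12 cells (SD, n = 7 and 2; log2 change 0.98 ± 0.36, adjusted p = 0.188). Ebp (0.63 ± 0.27, adjusted p = 0.272) and Scd1 (1.30 ± 0.57, adjusted p = 0.289) came next in size of the statistic. Of the 17 cholesterol enzymes 4 had positive changes, with a median of -0.35, and all 16 cell cycle genes had negative ones, 1 of them past the threshold. No median over all genes is given beside these signs, so a shift of the whole fit is not told apart. Of 10 endothelial markers 6 fell and of 6 erythroid markers 4 rose, and their part was not tested.

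The spread of the cholesterol enzymes between libraries of one group differed by group. In WT 3W cells the median SD of log2(TPM + 1) was 0.82 for the 17 cholesterol enzymes, 0.68 for the regulators and 0.60 for the fatty acid enzymes, beside 0.51 for the 7947 genes with a mean of 5 to 100 TPM. In KO 3W cells these medians were 0.62, 0.51 and 0.54, beside 0.45. For the cholesterol enzymes alone the median SD was 0.30 in KO 1W HFD cells beside 0.28, 0.69 in KO 12W HFD beside 0.26, 0.38 in WT P12 beside 0.41, 0.62 in WT 1W HFD beside 0.37 and 1.02 in WT 6M beside 0.34. In WT 12W HFD cells the 3 medians were 0.31, 0.50 and 0.34, beside 0.36. The median ratio of the highest to the lowest library was 7.85 for the cholesterol enzymes in WT 3W and 1.78 in WT 12W HFD cells.

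The high values came together in a few libraries. WT 3W replicate 7 was the highest of 7 libraries for 11 of the 17 cholesterol enzymes, and KO 3W replicate 1 the highest of 5 for 13 of them. WT 1W HFD replicate 4 was the highest of 4 for 14 of 17, and WT 6M replicate 2 exceeded replicate 1 in 17 of 17. Of the 12 fatty acid enzymes, WT 3W replicate 7 was the highest for 4, KO 3W replicate 1 for 9, WT 1W HFD replicate 4 for 3 and WT 6M replicate 2 for 4.

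As the mean of log2(TPM + 1) over the 17 enzymes, WT 3W replicate 7 stood at 5.18 beside 3.09 to 4.12 in the other 6 libraries. KO 3W replicate 1 stood at 4.98 beside 3.36 to 4.11, and WT 6M replicate 2 at 5.21 beside 3.83. The 5 WT 12W HFD libraries lay between 4.52 and 4.66, inside the range of WT 3W. For Sqle, the squalene epoxidase, the 2 high 3W libraries had 88.1 TPM (KO replicate 1) and 79.5 TPM (WT replicate 7), and the others 6.48 to 31.7 TPM.

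Other gene groups were also unlike in some of these libraries. KO 3W replicate 1 had a mean cell cycle level of 5.68 (log2(TPM + 1), 16 genes) beside 2.54 to 4.12 in the other KO 3W libraries, and a mean immediate early level of 7.52 beside 9.42 to 9.88. WT 3W replicate 7 had a cell cycle level of 4.74 beside 2.66 to 4.13, and an immediate early level of 9.499, within the 9.10 to 10.20 of the others. WT 1W HFD replicate 4 was high for cholesterol enzymes but had the lowest cell cycle level of its group, 2.04 beside 3.27 to 3.86. Among KO 3W libraries the adipocyte markers Plin1, Car3 and Pparg were highest in replicate 1, at 71.45, 3363.81 and 79.44 TPM. Within WT 3W they were highest in replicate 7, at 47.99, 6758.86 and 80.51 TPM. Adipoq, Fabp4, Lipe and Cidea were highest in KO 3W replicate 1 but not in WT 3W replicate 7. Plin4, Cidec, Retn, Pnpla2, Cfd, Slc2a4 and Cebpa were highest in neither library, and Lep read 0 in both groups. WT 1W HFD replicate 4 was the lowest of its group for Plin1, Car3 and Pparg. The part of these levels in the spread was not tested.

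**Figure D4:**
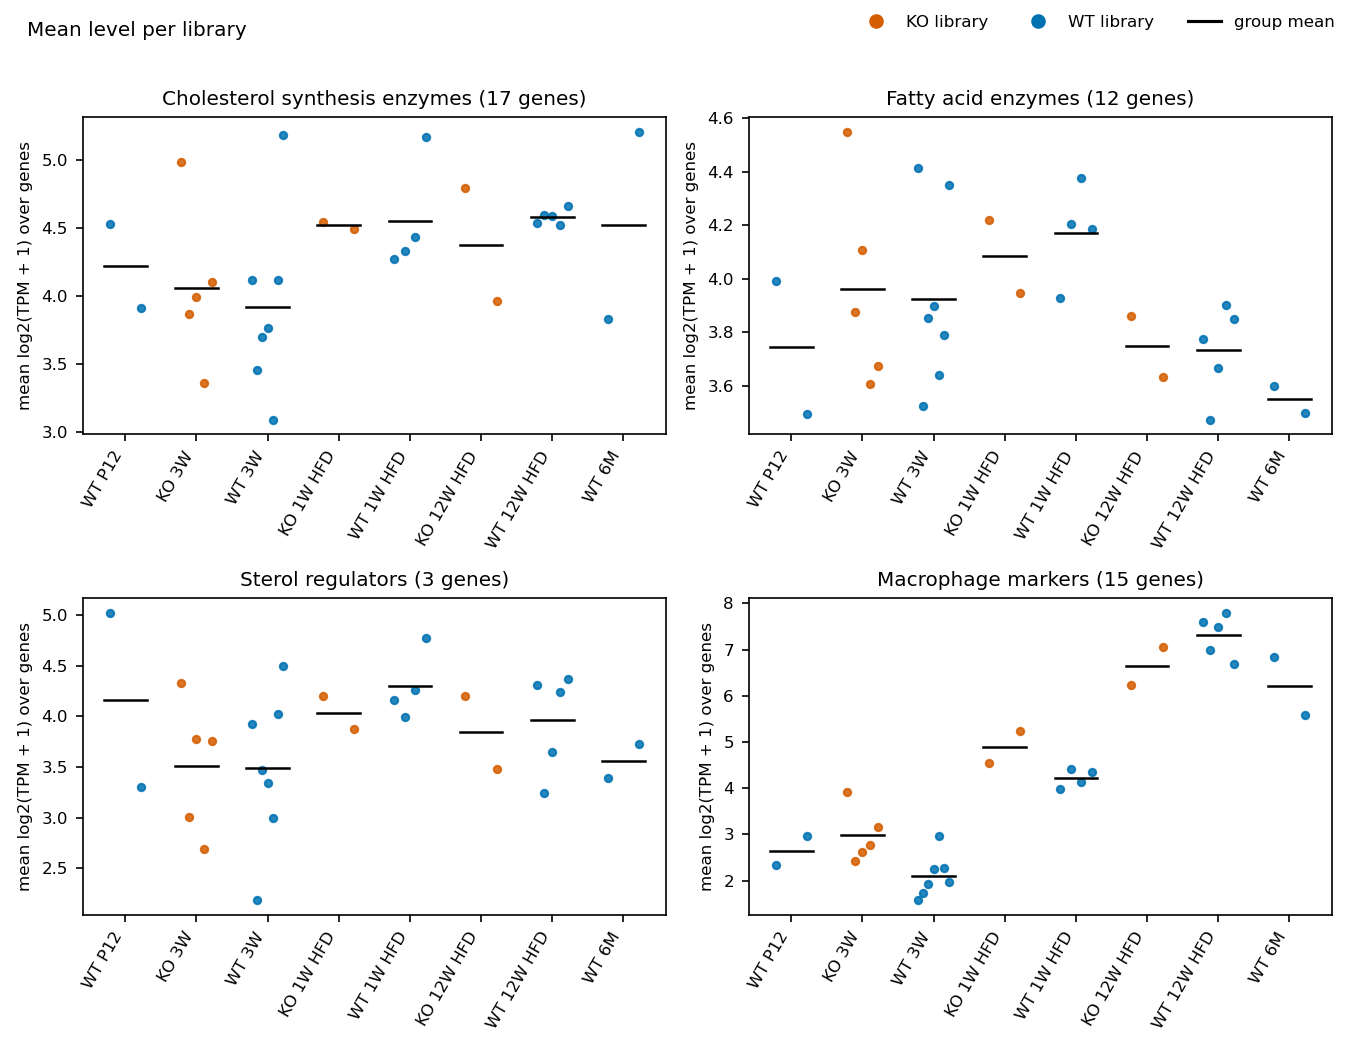
Mean log2(TPM + 1) per library over the 17 cholesterol enzymes, the 12 fatty acid enzymes, the 3 sterol regulators and 15 macrophage markers, by group (orange KO, blue WT, black lines group means). In the first panel the 7 WT 3W libraries run from 3.09 to 5.18 and the 5 WT 12W HFD libraries from 4.52 to 4.66, while macrophage markers are far higher in 12W HFD and 6M than in 3W libraries.

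Other lipid genes were counted in the same way. Of 17 genes of sterol efflux, storage and oxidation, 6 rose and 2 fell in WT 12W HFD against WT 3W cells, where 7.94% of all genes rose and 6.23% fell. Abcg1, a sterol exporter, averaged 36.2 ± 15.5 TPM in WT 12W HFD and 1.80 ± 2.44 TPM in WT 3W cells (SD; log2 change 3.93 ± 0.47, limma adjusted p = 3.45e-07). Lipa, the lysosomal acid lipase, averaged 224 ± 102 TPM and 55.6 ± 12.2 TPM in the same order (1.90 ± 0.25, adjusted p = 1.38e-06). Soat1, which esterifies cholesterol for storage, rose by 1.46 ± 0.27 and Npc2, which carries lysosomal cholesterol, by 0.72 ± 0.13 (adjusted p = 0.000237 and 0.000238). These genes are also expressed by macrophages, whose markers rose in the same comparison, and the part of those cells was not tested.

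In KO 12W HFD against KO 3W cells 2 of the 17 rose and 1 fell, against 3.19% and 1.96% of all genes. Abcg1 rose by 3.498 ± 0.672 and Lipa by 1.97 ± 0.35, while Cyp27a1, the sterol 27-hydroxylase, fell by 2.15 ± 0.48 (limma adjusted p = 0.00106, 0.000447 and 0.00459). In WT 1W HFD against WT 3W cells 2 of the 17 fell and none rose, against 3.25% and 4.78% of all genes. The 2 were Cyp7b1, an oxysterol hydroxylase (-2.32 ± 0.38, adjusted p = 0.000381), and Apoe, a lipid carrier protein (-1.51 ± 0.46, adjusted p = 0.0416). None of the 17 passed in KO against WT cells at any time by limma, with 0, 1 and 2 at an unadjusted p under 0.05 at 3W, after 1 week and after 12 weeks of HFD. From P12 to 3W Nr1h3, the sterol-sensing receptor LXR alpha, rose (1.66 ± 0.40, adjusted p = 0.0282).

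Of 12 other tested genes of sterol synthesis and uptake, Mbtps1, a protease that activates the sterol-sensing factors, fell in WT 12W HFD against WT 3W cells (-0.56 ± 0.19, limma adjusted p = 0.0498) and in WT 12W HFD against WT 1W HFD cells (-0.74 ± 0.22, adjusted p = 0.0409). Of 20 genes of lipogenic control, NADPH supply and glyceride synthesis, 1 rose and 4 fell in WT 12W HFD against WT 3W cells, beside 7.94% and 6.23% of all genes, so that the share that rose was below that of all genes. Mlxipl, the glucose-sensing factor ChREBP, averaged 0.0620 TPM in WT 12W HFD and 3.18 TPM in WT 3W cells (-1.64 ± 0.41, adjusted p = 0.00570). Its values lie near the floor, at 0 to 0.21 TPM in WT 12W HFD and 0 to 6.79 TPM in WT 3W libraries. Acsl1, which activates fatty acids, and Gpam, the first enzyme of glyceride synthesis, fell, with log2 changes of -1.41 ± 0.36 and -1.11 ± 0.33 (adjusted p = 0.00725 and 0.0223). Some adipocyte markers fell in the same comparison, as given above, and the part of adipocytes was not tested. Hsd17b12, the ketone reductase of fatty acid elongation, rose by 1.10 ± 0.33 (adjusted p = 0.0226). After 1 week of HFD G6pdx, which supplies NADPH, rose in WT cells (1.27 ± 0.31, adjusted p = 0.0103).

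Of 20 genes of fatty acid oxidation 3 fell and none rose in WT 12W HFD against WT 3W cells, beside 6.23% and 7.94% of all genes. Hadh, Acaa2 and Eci1, all of the mitochondrial spiral, fell, with log2 changes of -0.63 ± 0.17, -0.61 ± 0.17 and -0.60 ± 0.17 (limma adjusted p = 0.00806, 0.0160 and 0.0144). In WT 6M against WT 3W cells, where 6.85% of all genes fell, 2 of the 20 fell, Hadha (-0.70 ± 0.21, adjusted p = 0.0272) and Hadh (-0.73 ± 0.23, adjusted p = 0.0377). Of 15 adipocyte markers, 6 fell in the first of these comparisons and 1 in the second.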

How the data were processed

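The authors deposited TPM values per gene, 1 column per RNA library, in a KO table and a WT table. The submitters' processing notes name Bowtie2 2.3, FastQC, MACS2, RSEM, STAR 2.5.3a and Trim Galore 0.6 along with mm10, and give no role or order for them. TPM holds no read depth, so no counting interval was computed, and precision rests on the spread between libraries. Whether libraries are separate animals is not given, so p-values measure only that spread. The deposited ATAC peak lists, 1 per library, carry a ratio to background (fold enrichment) and a −log10 q value from the authors. These 2 values served for ranks and a cutoff inside each list.

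A gene was tested when 2 or more of the 29 libraries held 1 TPM or more, which left 15659 genes and all 32 members. From log2(TPM + 1), limma 3.58.1 (R 4.3.3) estimated 8 group means without covariates, leaving 21 residual degrees of freedom, and eBayes moderated the variances along a trend. Two-sided p-values were adjusted by Benjamini-Hochberg across these genes and called under 0.05. The script was tested on simulated data. For genes of low level this scale makes log2 changes smaller than on TPM itself. The ± of a TPM mean is the SD and that of a log2 change the SE. In each comparison values are given for members past the threshold (at most 8), and where fewer than 2 passed also for the 3 with the largest statistic. Of other lists at most the 4 genes with the smallest adjusted p are named, and other members given with values were chosen after those were seen. The members and lists were chosen with earlier results of these data known. Comparisons with the same group share its libraries and are not independent. Motifs were searched in RefSeq promoter windows of GRCm38.p6 with a Python 3 script.

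The 3W titles name pairs of KO and WT libraries but not the basis of the pairing. Correlations of deviations within 6 pairs exceeded 0.1 in 5 (lowest -0.13, highest 0.48), and pairing was accepted only with all over 0.1 or with a stated basis, so the main fit has no block. Alternatives were other scalings, pseudocounts and filters, array weights, fits on the compared groups alone, a replicate block and leaving out each library.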

Additional observations from a re-analysis of the deposited data

Results flagged for a closer look

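Among 128 combinations of a gene and a group of 4 to 7 libraries, 4 had 1 library far from the rest by Dixon's test at the 95% level, where chance gives about 1 in 20. In WT 3W cells, Hmgcs1 read 106.59 TPM and Msmo1 91.96 TPM in replicate 7, beside at most 41.0 and 24.2 TPM in the other 6 libraries. In WT 1W HFD cells, Mvd, the mevalonate diphosphate decarboxylase, read 23.55 TPM and Fdps 140.77 TPM in replicate 4, beside at most 9.94 and 78.5 TPM in the other 3. None of 12 combinations of a gene list and a group was marked in this way.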

How the results depend on the processing

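The counts of 0 genes in KO against WT at all 3 times, in the 3 interaction tests, in WT 3W against WT P12, in WT 12W HFD against WT 6M and in both KO 1W HFD comparisons stayed at 0 under every alternative run, and in KO 3W against WT 3W also with the pair of the titles as a block. In WT 12W HFD against WT 3W the 8 calls became 5 with no filter on low values, which tests more genes, and ran from 4 to 11 when libraries were left out. In WT 6M against WT 3W the 1 call became 2 after rescaling each column to an equal sum, with median-ratio scaling, with a pseudocount of 0.1 and with a filter of 5 TPM, and ran from 1 to 2 without single libraries. In WT 1W HFD against WT 3W the 1 call became 3 with array weights and 0 in a fit on the compared groups alone, and ran from 0 to 5, the 5 being without WT 3W replicate 7 and KO 3W replicate 1 together, chosen after their levels were seen. In WT 12W HFD against WT 1W HFD the 2 calls became 4 with array weights, and in KO 12W HFD against KO 3W they became 1 in a fit on the compared groups alone and ran from 0 to 2. Counts over all genes under these alternatives are not given beside them, and the causes were not tested. No called gene changed direction. With the replicate number as a block, on the libraries that share a number, the counts were 0 in WT 6M against WT 3W, WT 1W HFD against WT 3W, WT 12W HFD against WT 1W HFD and KO 12W HFD against KO 3W, and 10 in WT 12W HFD against WT 3W. These fits use fewer libraries, and replicates there share only a number. A group left with 1 library was assumed to vary like the others. The 22 members with a promoter peak in every ATAC library stayed 22 under all 3 alternatives.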
